A study of Mus musculus with 6 samples.

Results

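Dorsal telencephalon transcription factors were followed as a check of the sorted domain. They are 9 genes, found in the raw count table by their names, of 38561 genes in that table, and all 9 passed the filter on low counts, which left 16495 genes to test. By role they are pallial patterning factors (Emx1, Emx2, Pax6 and Lhx2), proneural and neuronal differentiation factors of the basic helix-loop-helix (bHLH) family (Neurog1, Neurog2 and Neurod1) and T-box factors of the glutamatergic lineage (Eomes and Tbr1). In GRCm38 the patterning genes lie as follows (strand in brackets): Emx1 at chr6:85187438-85204462 (plus), Emx2 at chr19:59458372-59465357 (plus), Pax6 at chr2:105668900-105697364 (plus) and Lhx2 at chr2:38339281-38369733 (plus). The bHLH genes are Neurog1 at chr13:56250478-56252163 (minus), Neurog2 at chr3:127633135-127635631 (plus) and Neurod1 at chr2:79452521-79456751 (minus), and the T-box genes Eomes at chr9:118478212-118486132 (plus) and Tbr1 at chr2:61802930-61814114 (plus).

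The libraries came from mouse embryos of strain C57BL/6 at embryonic day E11.5. There were 2 heterozygous libraries (Magoh lox/+; Nkx2.1-Cre; ROSAloxSTOPloxTdTomato) and 4 control libraries (Nkx2.1-Cre;ROSAloxSTOPloxTdTomato), so both groups carried the Cre driver and the reporter, and only the floxed Magoh allele set them apart. Cre under Nkx2-1 control switches on tdTomato, tdTomato-positive telencephalic cells were sorted, and the submitters call them cells of the medial ganglionic eminence (MGE). Nkx2-1 is also expressed in the developing hypothalamus, so the driver by itself does not separate the MGE from that region. The labels leave unsaid whether each library came from its own embryo or from a pool. The p-values therefore cover the spread between these samples, which may be technical.

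As background, the telencephalon is divided early into a dorsal pallium, the source of cortical glutamatergic neurons, and a ventral subpallium, the source of GABAergic neurons. Emx1, Emx2, Pax6 and Lhx2 act in pallial progenitors, Neurog1 and Neurog2 drive those progenitors towards a neuronal fate, and Eomes, Neurod1 and Tbr1 follow in intermediate progenitors and young glutamatergic neurons. Several of these factors also work elsewhere: Lhx2 and Emx2 in the diencephalon, Pax6 in the eye and diencephalon, and the proneural factors in the hypothalamus, the spinal cord and the sensory ganglia.

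Total counts were 41951182 and 49189360 in heterozygous libraries 1 and 2 and 37429290 to 44198702 in the controls. Levels are in CPM, the usual count relative to the library total, with totals scaled by TMM factors. Magoh stood at 57.1 and 48.6 CPM in heterozygous libraries 1 and 2, against 63.6 to 118 CPM in controls (log2 fold change -0.62 ± 0.27, SE; edgeR, adjusted p = 0.85). Heterozygous library 1 and control 2 had 0 reads from 4 Y-linked genes, and the other 4 libraries had 3453 to 4291. The same pair of libraries had lower levels of genes with exons summing to 8000 bases or more, relative to genes under 1000 bases. The difference was -0.32 and -0.75 on the log2 scale, against 0.12 to 0.38 in the others. Genotype differences are therefore also given within each of these sets of libraries. The pair without Y-linked reads still differed in this length trend, so its differences are not free of it.

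Upstream sequences are shown for the 3 bHLH genes and Lhx2, the members with the highest levels per exon length beside Emx2, whose window lies within annotated exons. They are taken from RefSeq (GRCm38.p6), run 5′ to 3′ on the gene's strand, and stop before any exon of that gene in GENCODE M21. Exons of other genes were not checked. Capitals mark the E-box CANNTG, which bHLH factors bind, and the homeobox core TAATTA. Lhx2 is given at chr2:38339031-38339280 (plus strand), Neurog2 at chr3:127632886-127633134 (plus strand), Neurog1 at chr13:56252181-56252430 (minus strand) and Neurod1 at chr2:79456752-79456886 (minus strand).
Lhx2: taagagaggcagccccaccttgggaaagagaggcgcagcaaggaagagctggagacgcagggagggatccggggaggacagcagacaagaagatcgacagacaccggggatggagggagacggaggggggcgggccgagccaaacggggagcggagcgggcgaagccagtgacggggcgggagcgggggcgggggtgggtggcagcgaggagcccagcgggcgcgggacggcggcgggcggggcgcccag
Neurog2: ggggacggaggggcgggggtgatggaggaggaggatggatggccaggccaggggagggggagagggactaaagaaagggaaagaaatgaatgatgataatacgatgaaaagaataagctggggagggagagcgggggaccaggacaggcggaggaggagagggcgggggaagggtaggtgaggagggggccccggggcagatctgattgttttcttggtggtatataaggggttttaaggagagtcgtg
Neurog1: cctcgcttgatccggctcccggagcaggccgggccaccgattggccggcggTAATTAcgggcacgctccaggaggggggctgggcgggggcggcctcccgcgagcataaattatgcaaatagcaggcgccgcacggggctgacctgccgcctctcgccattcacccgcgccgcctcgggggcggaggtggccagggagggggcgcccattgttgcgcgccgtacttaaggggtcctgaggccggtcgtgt
Neurod1: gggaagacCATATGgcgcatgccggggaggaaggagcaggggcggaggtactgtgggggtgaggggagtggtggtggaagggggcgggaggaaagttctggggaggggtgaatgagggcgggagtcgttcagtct
Within 250 bases before a RefSeq start, searched on both strands, TAATTA was found in 2 of the members' 11 windows, those of Neurog1 and Tbr1, and in 4.84% of 32851 windows of all genes. An E-box of any kind was found in 4 of the 11 windows (of Emx1, Neurod1, Pax6 and Tbr1) and in 66.2% of all windows. CAGATG, an E-box that is also counted under CANNTG and that proneural factors favour, was found in 0 of the 11 windows and in 14.4% of all windows. The 250-base windows of Lhx2, Neurog1 and Neurod1 held 72.8, 71.2 and 67.6% G and C, and that of Neurog2 58%, where the median over all windows was 52.4%. Unlike the printed sequences, the windows counted here can lie in exons. Those of Emx1, Emx2 and Tbr1, and window 2 of Pax6 and of Lhx2, lie wholly within annotated exons. The TAATTA of Tbr1 and the E-boxes of Emx1, Pax6 and Tbr1 are thus in exons. These matches describe the letters of the windows and say nothing of binding.

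The 9 factors formed a high and a low set in these sorted cells. Levels between genes are compared as CPM per kb of exon. Neurog2 averaged 38.9 ± 10.3 CPM per kb and Lhx2 36.0 ± 6.41 CPM per kb (SD, n = 6 libraries), and their ranges overlapped, with Neurog2 above Lhx2 in 3 of 6 libraries. Emx2 at 11.3 ± 3.99 and Neurog1 at 11.1 ± 1.78 CPM per kb came next and overlapped each other, and Neurod1 followed at 4.78 ± 1.41 CPM per kb. All of these lay clear of the members of the low set in all 6 libraries.

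In the low set Eomes averaged 0.733 ± 0.266, Tbr1 0.445 ± 0.164, Emx1 0.278 ± 0.162 and Pax6 0.264 ± 0.0887 CPM per kb (SD, n = 6). Each overlapped its neighbour in this order. The factors of the low set stood between percentiles 10.01 and 32.1 of tested genes, whereas Neurog2 and Lhx2 stood between percentiles 87.0 and 94.8. With the longest transcript in place of all exons, Pax6 (4427 against 11694 bases) stood at 0.698 CPM per kb and moved above Tbr1 and Emx1, and Lhx2 moved above Neurog2.

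Per exon length, every dorsal factor averaged less than Nkx2-1 and Dlx2 in the same libraries, and Neurog2 and Lhx2 averaged more than Lhx6. Nkx2-1, the MGE selector, averaged 149 ± 30.2 CPM per kb, Dlx2, a subpallial homeobox factor, 128 ± 56.5, and Lhx6, a factor of MGE-derived neurons, 22.4 ± 14.5 (SD, n = 6). Neurog2 reached 11.8 to 42.7% of the Nkx2-1 level and Lhx2 18.6 to 36.2%, while Emx1 stayed at 0.0867 to 0.361% and Pax6 at 0.105 to 0.324%. Nkx2-1, Dlx2 and Lhx6 were thus present in every library. Markers of neighbouring regions were present too, with averages over 20 CPM for 10 of 14 hypothalamus and preoptic genes and 5 of 11 thalamus and prethalamus genes, Nkx2-4 and Dbx1 among them. The sum of the 9 factors was 18.0 and 10.3% of the sum of 15 subpallial factors in heterozygous libraries 1 and 2, against 14.5, 14.5, 10.96 and 30.6% in controls 1 to 4 (CPM per kb). Control 4 stood above the other 5 libraries, and the groups overlapped (exact permutation test, two-sided, p = 0.733, where the smallest p that 2 against 4 samples allow is 0.0667).

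**Figure D1:**
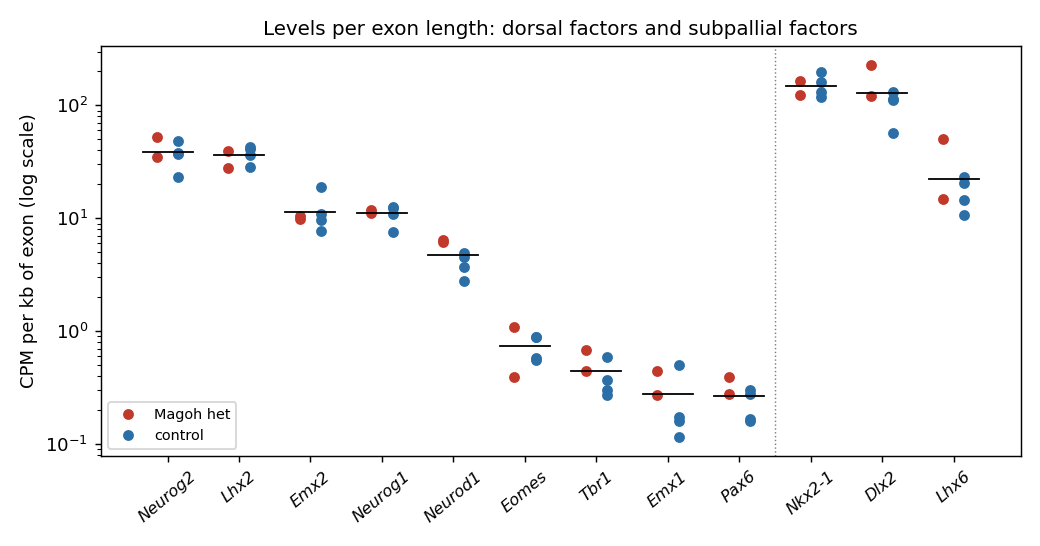
Levels of the 9 dorsal factors (left of the dotted line) and of 3 subpallial factors, in CPM per kb of exon on a log axis, with a point for each library and a bar at the mean over 6 libraries. Neurog2, Lhx2, Emx2, Neurog1 and Neurod1 are at 2.81 CPM per kb or more in every library, and Eomes, Tbr1, Emx1 and Pax6 at 1.102 or less.

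No member passed the test between genotypes. With edgeR's quasi-likelihood test and Benjamini-Hochberg adjustment over all 16495 genes, 0 of 9 members were called, against 0.0% of all genes, and 1 member had an unadjusted p under 0.05, against 5.72% of all genes. DESeq2 called 0 members (0.484% of all genes) and limma-voom 0 (0.0% of all genes). Of the 9 members, 7 had a log2 fold change above 0 and 2 below 0, with a median of 0.25, where 46.1% of all tested genes were above 0 and their median was -0.03. Both heterozygous libraries lay above all controls for 1 member, against 6.17% of all genes, and below all controls for 0 members, against 8.14% of all genes. In sorted bulk RNA, more cells of a type and more RNA per cell cannot be told apart.

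Among the proneural and differentiation factors, Neurod1 was the member whose genotypes did not overlap. Neurod1 promotes neuronal differentiation and lies downstream of the neurogenins. It stood at 17.7 and 16.8 CPM in heterozygous libraries 1 and 2, against 12.5, 10.05, 7.67 and 13.5 CPM in controls 1 to 4. Both heterozygous libraries thus lay above the highest control, by a smaller step than the controls differed among themselves. Its log2 fold change was 0.66 ± 0.25 (SE; edgeR, unadjusted p = 0.0311, adjusted p = 0.85), which ranked 596 among the tested genes, and the exact permutation test gave p = 0.133 (two-sided). DESeq2 gave an adjusted p of 0.544. Neurod1 shares 201 exon bases with Cerkl on the same strand, which had 6 and 11 reads in heterozygous libraries 1 and 2 and 0 to 14 in controls. The difference was 0.81 between heterozygous library 1 and control 2, without Y-linked reads, and 0.63 between heterozygous library 2 and controls 1, 3 and 4.

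Neurog2, the main proneural factor of the dorsal telencephalon, stood at 117 and 77.3 CPM in heterozygous libraries 1 and 2, against 82.0, 84.0, 52.1 and 107 CPM in controls 1 to 4. Heterozygous library 1 was the highest of all 6, heterozygous library 2 lay inside the control range, and control 3 was the lowest. The log2 fold change was 0.25 ± 0.29 (SE; edgeR, adjusted p = 0.999). It was -0.063 without heterozygous library 1. Neurog1, its paralog, lay at 18.9 and 20.02 CPM in heterozygous libraries 1 and 2 and 20.6, 18.5, 12.9 and 21.1 CPM in controls 1 to 4. Control 3 was again the lowest library, and the other 5 spanned 18.5 to 21.1 CPM (log2 fold change 0.09 ± 0.23, SE). Without control 3 the log2 fold change of Neurog1 was -0.045.

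Per exon length, Neurog2 exceeded Neurog1 by 4.69 and 2.92 times in heterozygous libraries 1 and 2 and by 3.01, 3.44, 3.06 and 3.86 times in controls 1 to 4. Neurog2 was therefore the predominant neurogenin in every library, and the ratio overlapped between genotypes (exact permutation test on log2 ratios, p = 0.6). The ratio of Neurog2 to Neurod1 was 8.09 and 5.62 in heterozygous libraries 1 and 2 and 8.05, 10.2, 8.33 and 9.75 in controls 1 to 4, and it also overlapped (p = 0.2, exact).

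**Figure D2:**
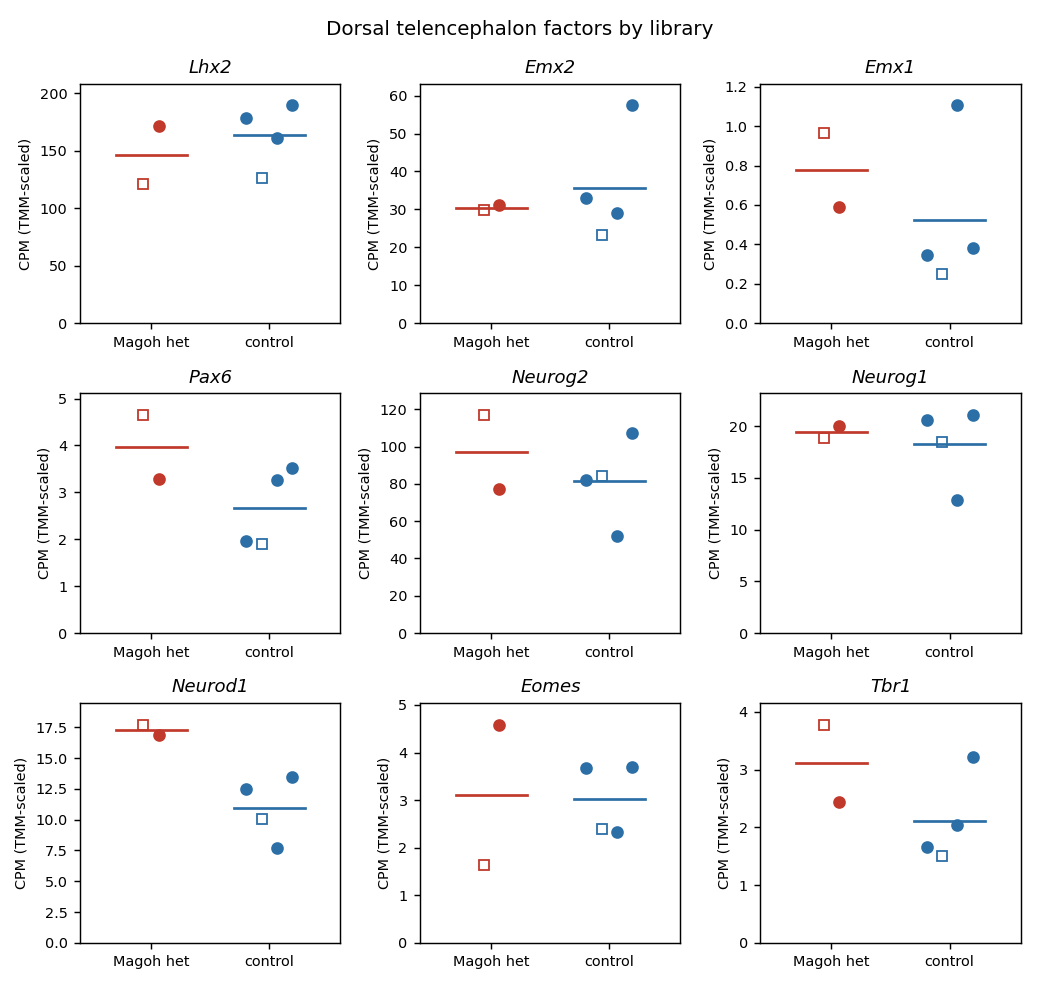
Level of each dorsal factor in every library, in TMM-scaled CPM on linear axes that start at 0, with heterozygous libraries in red and controls in blue, bars at the group means, and open squares for the 2 libraries without Y-linked reads. Neurod1 is the panel in which both heterozygous points, at 17.7 and 16.8 CPM, lie above every control point.

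The pallial patterning factors gave no common direction. Lhx2, a LIM homeobox factor that gives cortical progenitors their identity, stood at 122 and 172 CPM in heterozygous libraries 1 and 2, against 179, 126, 161 and 190 CPM in controls 1 to 4 (log2 fold change -0.16 ± 0.22, SE; edgeR, adjusted p = 0.999), and 0.08 without heterozygous library 1. The libraries without Y-linked reads, heterozygous 1 and control 2, had the lowest values, and none of the other 4 was under 161 CPM. Lhx2 was the only member for which these sets of libraries did not overlap. Within each set its genotype difference was -0.06 and -0.04 on the log2 scale.

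Emx2, a homeobox factor that patterns the cortex along its axes, stood at 29.7 and 31.2 CPM in heterozygous libraries 1 and 2, against 33.1, 23.2, 29.0 and 57.4 CPM in controls 1 to 4. The heterozygous libraries lay close together inside the control range, and control 4 was higher than any other library. Emx2 had a log2 fold change of -0.23 ± 0.34 (SE; edgeR, adjusted p = 0.999), and of 0.103 without control 4. Its antisense partner Emx2os shares 264 exon bases with it and stood at 2.66 to 5.82 CPM, so part of these reads cannot be assigned with certainty.

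Emx1, the paralog confined more strictly to the pallium, was covered by 41 and 29 reads in heterozygous libraries 1 and 2 and by 13, 9, 50 and 17 reads in controls 1 to 4. In CPM this was 0.966 and 0.59, against 0.348, 0.25, 1.105 and 0.38. Control 3 was the highest library, and its exact Poisson 95% interval of 0.82 to 1.46 CPM lay clear of the other controls, whose intervals ended at 0.609 CPM or lower. Without molecular identifiers, such intervals hold counting error alone. Between genotypes the log2 fold change was 0.57 ± 0.78 (SE; edgeR, adjusted p = 0.999). It was 0.186 without heterozygous library 1, 0.357 without control 2, 0.875 without heterozygous library 2 and 1.24 without control 3. For the pair without Y-linked reads it was 1.77. For the rest it was 0.14 as a difference of mean log2 CPM and -0.043 in edgeR's fit. Emx2 exceeded Emx1 per exon length by 22.4 and 38.5 times in heterozygous libraries 1 and 2 and by 19.1 to 110 times in controls.

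Pax6, the paired-domain factor that opposes ventral identity in pallial progenitors, stood at 4.64 and 3.28 CPM in heterozygous libraries 1 and 2, against 1.96, 1.89, 3.27 and 3.51 CPM in controls 1 to 4. The heterozygous libraries were the highest and, just above control 3, the third highest of the 6. For Pax6 the log2 fold change was 0.57 ± 0.37 (SE; edgeR, adjusted p = 0.936). Between heterozygous library 1 and control 2 it was 1.27, and between heterozygous library 2 and controls 1, 3 and 4 it was 0.21. Pax6 has the longest exon total of the members, 11694 bases, and heterozygous library 1 and control 2 differed in their length trend. The part of that trend in the 1.27 was not tested. With the trend removed, edgeR gave 0.774 ± 0.36 (SE) over all 6 libraries.

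The T-box factors behaved differently from each other in heterozygous library 1. Eomes, the factor of intermediate progenitors, stood at 1.63 and 4.58 CPM in heterozygous libraries 1 and 2, the lowest and the highest of all 6, against 3.67, 2.39, 2.32 and 3.69 CPM in controls 1 to 4. The exact Poisson 95% intervals of the heterozygous libraries, 1.27 to 2.06 and 3.998 to 5.22 CPM, did not meet. Eomes had a log2 fold change of 0.04 ± 0.46 (SE; edgeR, adjusted p = 0.999). It was -0.54 for the pair without Y-linked reads, 0.53 for the rest, 0.611 without heterozygous library 1 and -0.897 without heterozygous library 2.

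Tbr1, a factor of early-born cortical neurons, stood at 3.77 and 2.44 CPM in heterozygous libraries 1 and 2, against 1.66, 1.503, 2.03 and 3.22 CPM in controls 1 to 4. Here heterozygous library 1 was the highest of the 6, and heterozygous library 2 lay under control 4. Tbr1 had a log2 fold change of 0.56 ± 0.41 (SE; edgeR, adjusted p = 0.969), with 1.30 for the pair without Y-linked reads and 0.14 for the rest. The ratio of Tbr1 to Eomes per exon length was 1.76 and 0.404 in heterozygous libraries 1 and 2, against 0.343 to 0.664 in controls, so heterozygous library 1 was the only library with more Tbr1 than Eomes.

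**Figure D3:**
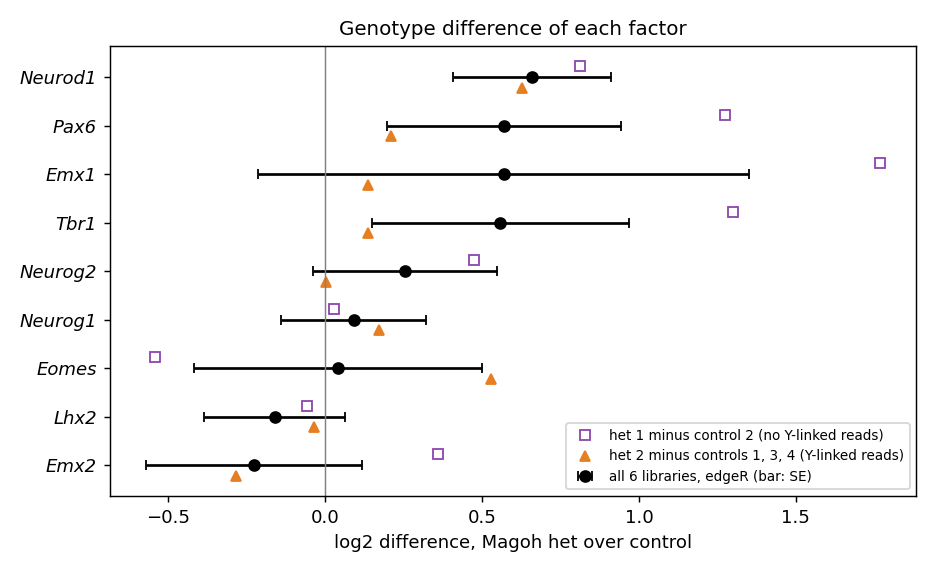
Log2 difference of each factor, heterozygous over control, with black points and SE bars for all 6 libraries (edgeR), open squares for heterozygous library 1 minus control 2 and triangles for heterozygous library 2 minus controls 1, 3 and 4. Neurod1 has all 3 values above 0.6, while for Eomes the within-set values are -0.54 and 0.53.

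Genes around the members in the glutamatergic lineage were mixed. Of 18 such genes 17 were tested, 11 had a log2 fold change above 0 and 6 below, with a median of 0.35, and edgeR called 0 and DESeq2 0. An unadjusted edgeR p under 0.05 was found for 3 of the 17, against 5.72% of all genes. Both heterozygous libraries lay above all controls for 5 of the 17 (6.17% of all genes) and below for 0 (8.14% of all genes). Nhlh1, a bHLH factor of newborn neurons of many regions, stood at 57.0 and 56.5 CPM in heterozygous libraries 1 and 2, against 21.8 to 35.8 CPM in controls (log2 fold change 0.83 ± 0.22, SE; edgeR, adjusted p = 0.793). Insm1, a zinc-finger factor of neurogenic progenitors, stood at 132 and 176 CPM, against 87.5 to 127 CPM in controls (0.59 ± 0.20, SE). Bhlhe22 and Mfap4 also lay above all controls, with log2 fold changes of 0.52 ± 0.22 and 0.54 ± 0.24 (SE). Nhlh1 and Insm1 also serve neurons outside the pallium.

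Late or strictly cortical genes of that list were near the detection limit. Neurod2, Neurod6 and Slc17a7, chosen for naming after their values were seen, averaged under 1 CPM. Neurod6, a factor of postmitotic pyramidal neurons, had 10 and 0 reads in heterozygous libraries 1 and 2 and 0 to 1 reads in controls. A count of 0 allows up to 3 reads, or 0.061 to 0.0802 CPM. Slc17a7, the main vesicular glutamate transporter of the cortex, reached at most 1.28 CPM, in heterozygous library 2. Neurod2 stood at 0.966 and 0.753 CPM in heterozygous libraries 1 and 2, against 0.0278 to 0.425 CPM in controls.

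Dorsal progenitor patterning genes were split. Of 13 tested, 6 were above 0 and 7 below, with a median of -0.03, and edgeR and DESeq2 called 0. An unadjusted edgeR p under 0.05 was found for 1 of the 13 (5.72% of all genes). Both heterozygous libraries lay above all controls for 2 of the 13 (6.17% of all genes) and below for 0 (8.14% of all genes). Nr2f1, an orphan nuclear receptor of cortical area patterning, stood at 187 and 201 CPM in heterozygous libraries 1 and 2, against 129 to 173 CPM in controls, and Nr2f2 at 150 and 134 CPM, against 80.2 to 131 CPM in controls. Gli3, the repressor that limits hedgehog signalling dorsally, had a log2 fold change of -0.73 ± 0.46 and Dmrta2 one of -0.53 ± 0.41 (SE), both with overlapping groups. Among 19 tested genes of the cortical hem and Cajal-Retzius cells, 6 were above 0 and 13 below, with a median of -0.31. Calls by edgeR or DESeq2 numbered 0. Both heterozygous libraries lay above all controls for 2 of the 19 (6.17% of all genes) and below for 2 (8.14% of all genes). In that list Ebf3 stood at 47.6 and 53.5 CPM, against 24.7 to 42.2 CPM in controls, and Wnt8b at 104 and 73.0 CPM, against 97.2 to 245 CPM in controls.

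The 15 subpallial factors had 13 log2 fold changes above 0 and 2 below, with a median of 0.39. Of all tested genes 46.1% were above 0. Calls by edgeR or DESeq2 numbered 0, and 3 of the 15 had an unadjusted edgeR p under 0.05 (5.72% of all genes). Both heterozygous libraries lay above all controls for 2 of the 15 (6.17% of all genes) and below for 0 (8.14% of all genes). These were Gsx1 and Dlx1, with log2 fold changes of 0.72 ± 0.29 and 0.79 ± 0.33 (SE). Dlx1 stood at 152.3 and 288.6 CPM in heterozygous libraries 1 and 2, against 151.4, 141.5, 143.2 and 75.5 CPM in controls 1 to 4. Its heterozygous library 1 was thus almost level with control 1. Gsx1 stood at 37.7 and 54.4 CPM, against 36.6, 31.2, 26.6 and 18.0 CPM. The median of the dorsal factors was 0.25, and the difference between the lists was not tested. That dorsal median depended on single libraries, with 0.0912 without control 3, 0.418 without control 4 and 0.516 without heterozygous library 2.

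Control 4 had the highest dorsal to subpallial ratio. Dlx2, a part of the ratio's denominator and so no separate observation, stood at 346 and 657 CPM in heterozygous libraries 1 and 2, against 372, 329, 322 and 161 CPM in controls 1 to 4, so control 4 was the lowest library. Rax, a homeobox factor of the eye field and hypothalamus, stood at 46.7 and 47.6 CPM in heterozygous libraries 1 and 2, against 79.7, 66.0, 61.1 and 133 CPM in controls 1 to 4, with control 4 the highest. Rax is in neither sum of the ratio.

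Markers of neighbouring regions were summed over whole lists. The 14 hypothalamus and preoptic genes, all detected, summed to 490.1 and 537 CPM in heterozygous libraries 1 and 2 and 395 to 553 CPM in controls. Of these 10 were above 0 and 4 below. DESeq2 called 1 of the 14, Sim1 (0.484% of all genes), and edgeR called 0, with 7 of the 14 at an unadjusted p under 0.05 (5.72% of all genes). Both heterozygous libraries lay above all controls for 6 of the 14 (6.17% of all genes), Sim1, Nkx2-2, Otp and Nr5a1 among them, and below for 1 (8.14% of all genes). The 11 thalamus and prethalamus genes, all detected, summed to 481 and 351 CPM, against 377 to 726 CPM in controls, with 3 above 0 and 8 below. The 10 eye genes summed to 100.1 and 138 CPM, against 143 to 218 CPM, with Crx at 0, and 3 of 8 tested genes were above 0 and 5 below. The 12 olfactory and cranial placode genes summed to 103 and 118 CPM, against 83.5 to 94.9 CPM, and 7 of 9 tested genes were above 0 and 2 below. The placode sum was thus higher and the eye sum lower in both heterozygous libraries than in all controls. Most of the eye sum came from Rax, Six6 and Vax1, at 46.7, 21.0 and 29.9 CPM in heterozygous library 1. In heterozygous library 2 they stood at 47.6, 59.8 and 28.4 CPM. Rax lay below all controls, Six6 and Vax1 overlapped, and Rax and Six6 are also in the hypothalamus list. Ebf2, also in the cortical hem list, gave 24.5 and 19.9 CPM of the placode sum and lay above all controls. Isl1, which is also in the hypothalamus list, gave 38.3 and 58.3 CPM of the placode sum, against 31.9 to 49.1 CPM in controls, and overlapped between genotypes. The part of these regions in the levels of the dorsal factors was not tested.

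Markers of cells outside the brain were summed likewise. The 12 surface ectoderm and epithelium genes summed to 16.8 and 13.2 CPM in heterozygous libraries 1 and 2, against 17.4 to 24.6 CPM in controls, with Krt14 at 0, so both heterozygous libraries lay below all controls. The 12 mesenchyme and neural crest genes summed to 269 and 114 CPM, against 167 to 267 CPM. Of the vascular, blood and microglia genes, 11 of 12 names were matched, and they summed to 315 and 8.48 CPM, against 36.1 to 175 CPM. Heterozygous library 1 was the highest library for Neurog2, Pax6, Tbr1 and Neurod1. It was level with control 4 for mesenchyme genes, at 269 against 267 CPM, and the highest for blood genes. Its haemoglobin genes Hba-x and Hbb-y stood at 162 and 111 CPM, while the vascular genes Kdr and Tek were highest in control 4. The part of these cells in the result was not tested.

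**Figure D4:**
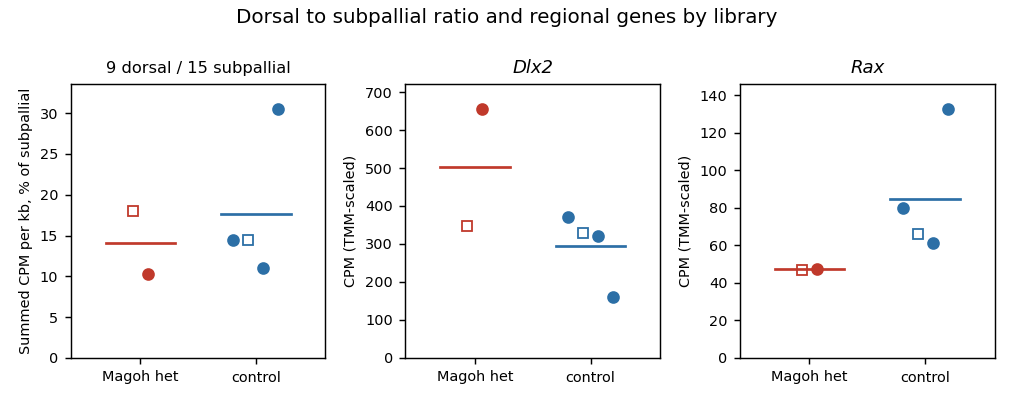
Sum of the 9 dorsal factors as a percentage of the sum of 15 subpallial factors (CPM per kb), and levels of Dlx2 and Rax in TMM-scaled CPM, with heterozygous libraries in red, controls in blue, bars at the group means and open squares for libraries without Y-linked reads. Control 4 has the highest ratio, 30.6%, the lowest Dlx2 and the highest Rax.

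Likeness of profile was measured as the root mean square (RMS) difference of centred log2 CPM over the 6 libraries, against 11946 other genes averaging 1 CPM or more, so Emx1 is left out. This describes 6 libraries that share their depth and composition, and says nothing of shared control. Pax6 was most like Tbr1 (RMS difference 0.17 log2 units), and Pax6 ranked 3 for Tbr1, after Mvp and Cdc42ep1. Emx2 was most like Fezf2, another forebrain factor (0.09), with the peak in control 4 in both, at 57.4 CPM for Emx2 and 72.8 CPM for Fezf2. Neurod1 was most like Nhlh1 (0.14). The nearest genes were Sema3f and Pxn for Lhx2, Man1a and Mb21d2 for Neurog1, Dio3 and Acpl2 for Neurog2, and Itga1 and Adcy9 for Eomes. The nearest other member of Neurog1 and of Neurog2 was the other neurogenin (0.24), which ranked 1215 and 90 among the genes.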

How the data were processed

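The submitters' processing notes list the tools Trim Galore, STAR and HTSeq and mm10 as build, without versions. For the annotation and strand setting, nothing is given in the sources used here. The authors deposited raw counts for 38561 genes (0 rows name no gene) and a normalized signal for 18065 genes, which was checked to be the deposited counts divided by a factor per library. Sample codes tied every column to a library (0 left over). Code numbers are shared by heterozygous library 2 and control 1 (70) and by controls 2 and 3 (71), and the labels do not say what they mark.

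Counts were tested with edgeR 4.0.16 (filterByExpr, TMM, robust quasi-likelihood, two-sided; threshold 0.05 after Benjamini-Hochberg adjustment over 16495 genes) in R 4.3.3. DESeq2 1.42.0 and limma 3.58.1 (voom, and trend on log2 of the authors' signal plus 1) were alternatives, beside other scaling, filters, covariates and left-out libraries. Standard errors were taken from the fold change and its F statistic. Exon lengths came from GENCODE M21 (GRCm38, the assembly of mm10), known for 98.6% of tested genes. On simulated counts for this comparison (15917 genes, 2 against 4), edgeR called 24% of the 2-fold and 76% of the 4-fold changes (100 genes per size) and 8 genes that had none. DESeq2 called 49% and 89% of these changes and 60 genes that had none, so its calls here need more caution.

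Named genes are the 9 members, from each list up to 4 by smallest p and 3 by level, and the 2 nearest profiles of each member. Of the genes this rule named, some are given here only within list counts. Members and lists were chosen with earlier results of these data known. Where a symbol had several IDs, the ID with the most reads was used. A few list genes are not reported here by name.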

Additional observations from a re-analysis of the deposited data

Results flagged for a closer look

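Emx1 in control 3 stood apart from the other controls, at 1.105 CPM against 0.25 to 0.38 CPM, since the gap to its nearest neighbour exceeded Dixon's 95% limit for 4 samples. Chance flags about 1 in 20 groups, and 9 members and the dorsal to subpallial ratio were examined. Control 3 had the lowest Neurog1, Neurog2 and Neurod1 of the 6 libraries.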

How the results depend on the processing

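Over 19 alternatives (18 for Emx1) 0 members were called wherever a test could be run. Neurod1 stayed between 0.431 and 0.812, Pax6 between 0.177 and 1.27 and Tbr1 between 0.09 and 1.30 on the log2 scale, all above 0. Signs turned for the others, and the cause was not tested. Eomes was -0.074 with limma-voom, -0.091 with limma-trend and -0.544 in the libraries without Y-linked reads, where Emx2 was 0.361. Among the libraries with Y-linked reads Emx1 was -0.043 and Neurog2 -0.049. Over left-out libraries Emx1 ran from 0.186 to 1.24, Eomes from -0.897 to 0.611, Emx2 from -0.376 to 0.103, Lhx2 from -0.438 to 0.08, Neurog1 from -0.045 to 0.168 and Neurog2 from -0.063 to 0.516. Over all genes DESeq2 called 75, and the replicate block by code number 11, with 1 residual degree of freedom. The labels do not say that a shared number pairs libraries. Under that block Neurog1 was -0.044, Neurog2 -0.086, and 4 members were below 0. Members below 0 also numbered 4 among libraries with Y-linked reads and without control 3, and 1 without control 4 (1 to 4 over left-out libraries). Members outside the control range numbered 2 among libraries with Y-linked reads, without heterozygous library 1 and without control 3. They numbered 3 without control 4 and 6 without heterozygous library 2 (1 to 6 over left-out libraries). Shares of all genes outside the range are not given for these settings. The shares of 6.17 and 8.14% hold for all 6 libraries, and 1 heterozygous library alone falls outside the controls more easily than 2. No shift of the members is therefore read from these counts. The median over members ran from 0.0912 to 0.516 over left-out libraries. With longest-transcript lengths 4 of 9 members kept their rank. In an alternative chosen after seeing the data, the ratio of dorsal to subpallial factors averaged 13.3% in controls without control 4, against 17.6% with it. The low depth of Emx1 (9 to 50 reads) limits its value.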
